A study of Ovis aries with 6 samples.

Results

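Chemokine transcripts were read in single cells of the Hu sheep ovary for 8 genes, the 7 ligands CXCL9, CXCL12, CXCL14, CXCL16, CCL5, CCL25 and XCL1, and the receptor CXCR4. They were chosen by name, and each was found by its symbol among the 30574 genes of the deposited tables. The high litter size group (HLS) held 3 ewes with litters of at least 3 lambs, and the low litter size group (LLS) held 3 ewes whose labels give a litter size below 2. All 6 were Hu ewes sampled in estrus. A whole ovary of each ewe was digested and gave 1 library (10x Chromium 3' v3), so the ewe was the replicate, and litter size was the only difference between the groups that the labels name.

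Chemokines are small secreted proteins that set up gradients along which leukocytes and other cells migrate, and their receptors are G protein-coupled receptors on the responding cells. CXCL9 draws CXCR3-bearing T and NK cells, CXCL12 acts on CXCR4 and is taken up by the scavenging receptor ACKR3, CXCL16 is a membrane-anchored ligand of CXCR6 that the proteases ADAM10 and ADAM17 release, CCL5 acts on CCR1 and CCR3 among others, CCL25 acts on CCR9 and is scavenged by ACKR4, and XCL1 acts on XCR1 of cross-presenting dendritic cells. CXCL14 is a chemokine of epithelia and connective tissue whose receptor is less settled. In the ovary, leukocytes enter and leave with follicle growth, ovulation and luteal regression, and vessels grow with each follicle.

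The libraries held 7992 to 9135 barcodes and 43329214 to 75549906 UMI each, where a UMI is 1 counted RNA molecule. After filters on cells and removal of called doublets, 36457 cells were retained, 5189 to 7096 an ewe, with a median of 5173 to 9644 UMI a cell. The cells were clustered without the chemokine genes, and the 33 clusters were named from marker genes. Endothelial-like cells (CDH5, VWF, PECAM1) made up 15174 cells, stromal-like cells 8701, granulosa-like cells 3000, perivascular-like cells 2646, T/NK-like cells 1678, theca-like cells 1434 and macrophage-like cells 1044. A further 1642 cells were led by cell cycle genes and are called cycling-like. The smaller types were epithelial-like (340 cells), B cell-like (289), Schwann-like (131), neutrophil-like (116) and luteal-like (107, from 1 ewe), and 155 cells stayed unnamed. HLS2 and LLS1 stood apart, since 4496 of the 4529 cells of endothelial-like clusters 2 and 18 came from those 2 ewes. Each pair of libraries shared 5 to 17 cell barcodes.

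Each of the 8 genes had 1 cell type in which its mean level over ewes was highest. A level here is the sum of a gene's UMI over the cells of a type in an ewe, per 10000 UMI of those cells, and is given as the mean and SD over ewes with at least 10 such cells. Levels of a gene are compared between cell types and between ewes. CXCL9 was highest in endothelial-like cells, CXCL12 in perivascular-like cells, CXCL16 in macrophage-like cells, CCL5 and XCL1 in T/NK-like cells, CCL25 in theca-like cells and CXCR4 in neutrophil-like cells. CXCL14 had few UMI in every type and was highest in Schwann-like cells, on 10 UMI.

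**Figure D1:**
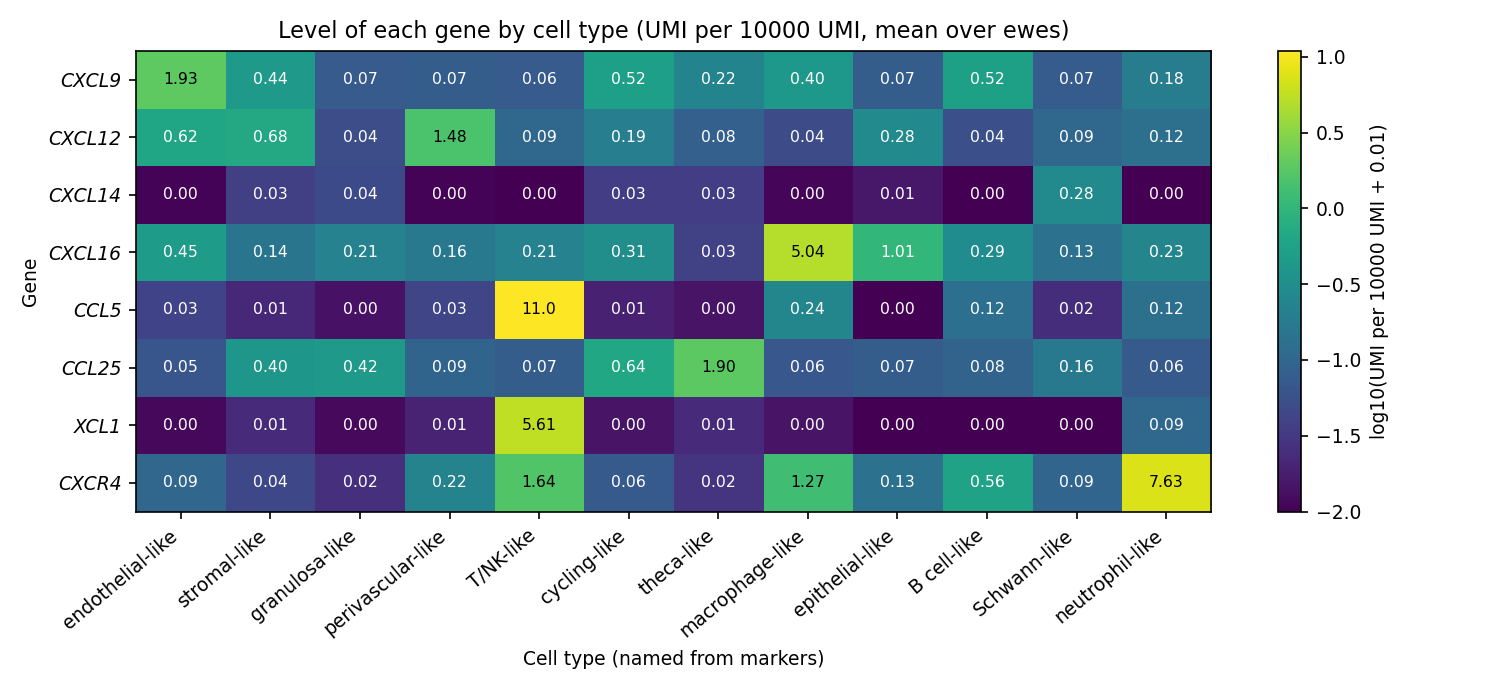
Level of the 8 genes (rows) in 12 cell types (columns); numbers are UMI per 10000 UMI, mean over ewes, and colour is log10 of that level plus 0.01. CCL5 (10.98) and XCL1 (5.61) stand out in T/NK-like cells, CXCL16 (5.04) in macrophage-like cells, and CXCR4 (7.63) in neutrophil-like cells.

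The type with the highest level was not always the type that held most of the UMI, because the types differed in number and in RNA per cell. Endothelial-like cells were 40.7% of the cells of an ewe on average and held 81.8% ± 7.78 (SD, n = 6) of the CXCL9 UMI, 54.7% ± 23.1 of the CXCL12 UMI and 48.0% ± 17.1 of the CXCL16 UMI. T/NK-like cells held 93.8% ± 3.64 of the XCL1 UMI and 83.3% ± 8.81 of the CCL5 UMI. Macrophage-like cells, 2.90% of the cells, held 32.0% ± 17.1 of the CXCL16 UMI and 27.0% of the CXCR4 UMI.

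**Figure D2:**
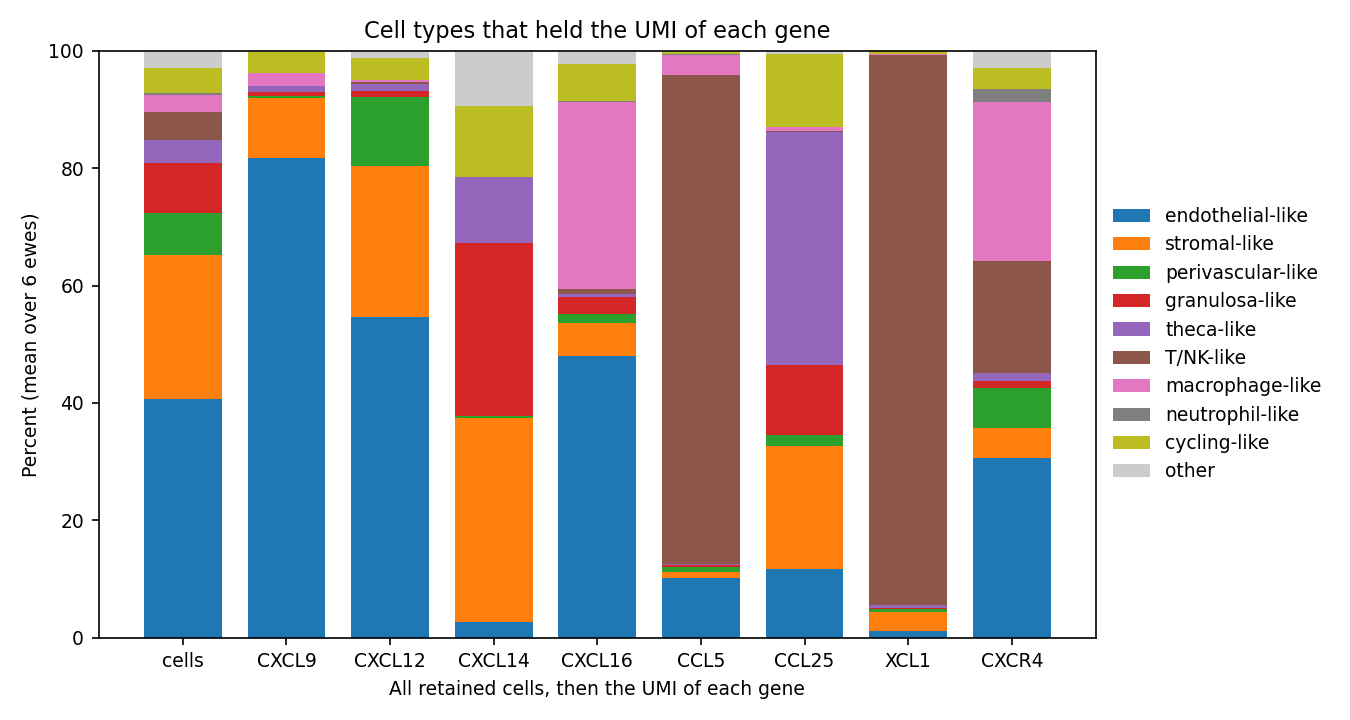
Percent of the UMI of each gene (bars, mean over 6 ewes) that lay in each cell type, with the percent of retained cells in each type as the first bar. XCL1 and CCL5 lay mostly in T/NK-like cells and CXCL9 mostly in endothelial-like cells (81.8%), while CXCR4 was spread over several types.

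CXCL9, the interferon-induced ligand of CXCR3, had its highest mean level in endothelial-like cells. Its level in endothelial-like cells was 1.11 in HLS1, 0.747 in HLS2, 2.90 in HLS3, 0.240 in LLS1, 2.52 in LLS2 and 4.08 in LLS3 (1.93 ± 1.47, n = 6). The values of both groups overlapped, but endothelial-like cells were not the highest type in every ewe. Macrophage-like cells were above them in HLS2 (1.35) and LLS1 (0.304), and stromal-like cells in LLS1 (0.248). The type with the next highest mean, B cell-like cells at 0.522, rested on 1 ewe: LLS3 had 16 UMI in 17 cells (3.04), LLS2 had 0.0902, and the other 4 ewes had 0. Cycling-like cells (0.516), stromal-like cells (0.438) and macrophage-like cells (0.405) followed, with no fixed order among ewes. In macrophage-like cells HLS2 was the high ewe (1.35), with 117 of its 157 UMI in 26 cells of a sub-cluster led by the complement genes C1QA to C1QC.

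Within the endothelium, CXCL9 was uneven. In cluster 0, led by the transporters ABCG2 and ABCB1 and by CA4, HLS1 to HLS3 had 2.66, 3.17 and 3.77 and LLS1 to LLS3 had 1.85, 3.22 and 5.12 (3.30 ± 1.10). Cluster 4, which also expressed CA4 and ABCG2, was at 3.48 ± 3.59, where LLS2 (10.4) had 11 cells and LLS1 (0.580) had 10. HLS1 held 1606 of its 1778 cells and was at 1.11 over all its endothelial-like cells, so the mean over ewes rested mostly on few cells. The venous endothelial-like cluster 24, led by NDRG1 and STC1, was at 2.85 ± 1.56 in 3 ewes, with 197 of its 281 cells from LLS2. Cluster 10, led by APLN, was at 1.04 ± 0.593. The lymphatic cluster 14, the arterial cluster 15 and cluster 18 did not pass 0.250 in any ewe, and cluster 2 was at 0.149 in HLS2 and 0.0675 in LLS1. Cluster 2 was named tip endothelial-like on a marker score of 0.558, against 0.464 for the venous list. Without clusters 2 and 18 the endothelial-like level was 2.27 ± 1.197, and without HLS2 and LLS1 it was 2.65 ± 1.22 (n = 4). After each cell was thinned to 1000 UMI, 11.3% of endothelial-like cells held a CXCL9 UMI against 0.761% of granulosa-like cells, taken as background. Unthinned shares were 28.6% and 4.40%, at median depths of 8373 and 7732 UMI a cell.

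**Figure D3:**
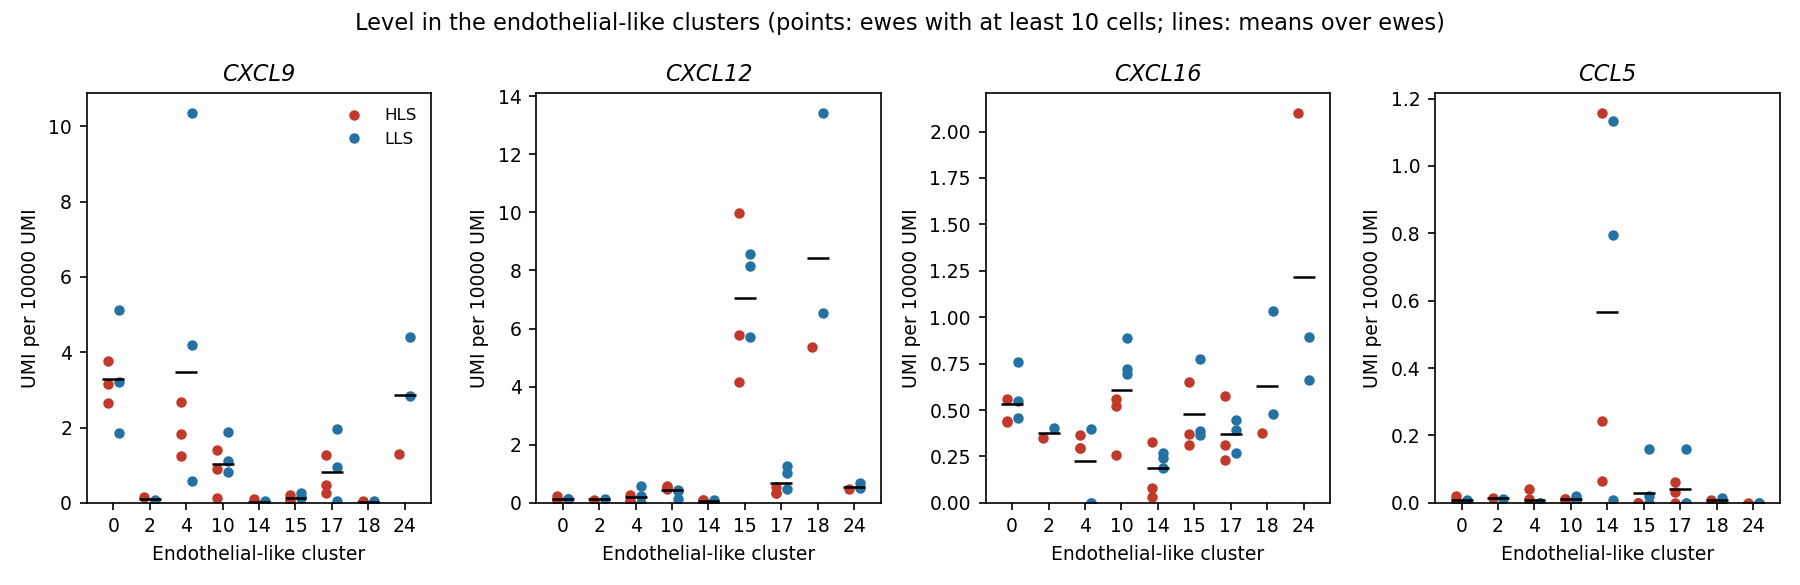
Level of CXCL9, CXCL12, CXCL16 and CCL5 (vertical axes, UMI per 10000 UMI) in the 9 endothelial-like clusters (horizontal axes); points are ewes with at least 10 cells of the cluster and lines are means. The mean of CXCL9 was high in clusters 0, 4 (1606 of 1778 cells from HLS1) and 24 (197 of 281 cells from LLS2). CXCL12 was high in clusters 15 and 18, and CCL5 in cluster 14 of 3 ewes.

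CXCL12, the CXCR4 ligand made by stromal and vascular cells, was highest in perivascular-like cells. Its level there was 1.16, 0.911 and 2.80 in HLS1, HLS2 and HLS3, and 0.999, 2.08 and 0.943 in LLS1, LLS2 and LLS3 (1.48 ± 0.779, n = 6). Perivascular-like cells stood above stromal-like cells (0.675 ± 0.582) in 6 of 6 ewes, while stromal-like cells stood above endothelial-like cells (0.623 ± 0.230) in 2 of 6, so the order of that pair was not stable over ewes. HLS3 and LLS2 were the high ewes, 1 in each group. The thinned share of perivascular-like cells with a CXCL12 UMI was 16.8% (31.3% unthinned, median 3348 UMI), against a background of 1.05% in T/NK-like cells (2.63%, median 2367 UMI).

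In each of the 3 types, CXCL12 was concentrated in 1 or 2 clusters. Among perivascular-like cells it was at 4.01, 2.75, 4.58, 5.62, 5.91 and 3.97 (HLS1 to LLS3) in cluster 11, which was led by the smooth muscle genes MYH11, TAGLN, ACTA2 and PLN. Cluster 9, led by the pericyte genes RGS5 and HIGD1B, was at 0.134 to 1.001, below cluster 11 in every ewe. Cluster 11 held 295 of the 356 perivascular-like cells of HLS3, 134 of 354 in HLS1 and 309 of 606 in HLS2. In LLS1 to LLS3 it held 221 of 524, 90 of 305 and 189 of 501. The part of this cell mix in the perivascular-like levels was not tested. Among endothelial-like cells, the arterial endothelial-like cluster 15 (GJA5, BMX, SEMA3G) was at 7.05 ± 2.19, with every ewe between 4.15 and 9.97. Cluster 18, which carried the arterial gene GJA4, was at 8.44 ± 4.36 in 3 ewes, and the CXCL9-rich cluster 0 was at 0.11 to 0.22. Among stromal-like cells, cluster 7, led by SERPINF1, DPT and PTGDS, was at 2.24 ± 0.949, with LLS2 highest at 4.14. LLS2 also had the largest part of its cells in cluster 7 (11.7%, against 1.55% to 4.75% in the other ewes), and its stromal-like level (1.86) stood above the other 5 ewes (0.357 to 0.528). A small epithelial-like cluster of 31 cells from LLS2, led by PRG4, was at 6.52.

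CXCL14 was close to the limit of these data, with 15 to 209 UMI in the retained cells of an ewe. Schwann-like cells had 0.380 in HLS1, 0 in HLS2, 0.827 in LLS1, 0.180 in LLS2 and 0 in LLS3 (0.277 ± 0.345, n = 5), which rested on 10 UMI in 122 cells. Granulosa-like cells followed at 0.0381, and Schwann-like cells were above them in 3 of 5 ewes. Cluster 26, granulosa-like cells with the follistatin and inhibin genes FST and INHA and with cell cycle genes, had 56 UMI, at 0 to 0.746 over 5 ewes. By amount, stromal-like cells held 34.8% ± 22.0 of the CXCL14 UMI and granulosa-like cells 29.5% ± 30.4 (SD, n = 6). LLS2 gave 88 of the 122 CXCL14 UMI of granulosa-like cells.

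CXCL16, which serves both as adhesion molecule and as soluble ligand, was highest in macrophage-like cells. HLS1 to HLS3 had 4.17, 4.62 and 8.05 and LLS1 to LLS3 had 2.92, 6.09 and 4.37 (5.04 ± 1.79, n = 6), so the groups overlapped. Macrophage-like cells stood 5.30 times above epithelial-like cells (1.01 ± 0.220) over the 4 ewes that had both, and above them in 4 of 4. Endothelial-like cells came next, with a narrow spread from 0.294 to 0.623 over ewes. The thinned share of macrophage-like cells with a CXCL16 UMI was 28.6% (71.5% unthinned, median 6462 UMI), against 1.60% of granulosa-like cells (9.10% unthinned).

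Among myeloid sub-clusters, CXCL16 was present in the macrophage-like and dendritic-like ones, while the neutrophil-like sub-cluster 10 had 3 UMI in 110 cells. Sub-cluster 8 (144 cells led by CFD) ran from 1.15 in HLS2 to 3.98 in LLS3. The 89 cells led by GPNMB and CTSD, genes of lysosome-rich macrophages, were at 2.86 in HLS2, 12.3 in HLS3 and 9.96 in LLS2, the ewes with at least 10 of them. A sub-cluster of 161 cells led by CXCL8 and the interferon-induced gene ISG15, of which 99 came from LLS2, was at 6.37 in LLS2 and 4.11 in LLS3. The C1Q-led sub-cluster of 301 cells was at 2.62 to 6.45 over 6 ewes. Sub-cluster 4, with VCAN and THBS1, which scored highest for the neutrophil markers among the myeloid lists but lay in a macrophage-like cluster, was at 2.65 to 4.97 in 4 ewes, and the dendritic-like sub-cluster at 2.42 to 4.45 in 6. Among the partner genes, the receptor CXCR6 had 182 UMI in all and was highest in T/NK-like cells (0.353 ± 0.0811, n = 6). Macrophage-like cells had 3 of its UMI, and some lay outside the immune cells. The sheddases ADAM10 and ADAM17 were highest in Schwann-like cells, at 4.24 ± 1.52 and 1.34 ± 0.235 (n = 5).

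CCL5, a ligand for effector lymphocytes and monocytes, was highest in T/NK-like cells. The level was 11.4, 13.1 and 9.55 in HLS1 to HLS3 and 11.4, 6.45 and 14.0 in LLS1 to LLS3 (10.98 ± 2.70, n = 6). LLS2 was lowest, the other 5 ewes lay within 9.55 to 14.0, and the groups overlapped. T/NK-like cells stood 46.1 times above macrophage-like cells (0.238), and above them in 6 of 6 ewes. The thinned share was 40.3% of T/NK-like cells (50.3% unthinned) against 0.123% of granulosa-like cells (0.407%).

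XCL1, released by activated NK cells and CD8 T cells, was read almost only in T/NK-like cells. HLS1 to HLS3 had 2.72, 4.48 and 8.32, and LLS1 to LLS3 had 4.42, 7.53 and 6.18 (5.61 ± 2.12, n = 6). HLS1 was the lowest and HLS3 the highest ewe, so the HLS range held all 3 LLS values. The next type, neutrophil-like cells, had 2 UMI. The thinned share was 19.4% of T/NK-like cells (28.1% unthinned) against 0.0447% of granulosa-like cells (0.198%).

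The lymphocyte sub-clusters, formed without the chemokine genes, divided into 3 kinds by CCL5 and XCL1. Sub-cluster 2 (246 cells with CTSW, KLRD1 and IL2RB, genes of cytotoxic and NK cells) had both, with CCL5 at 18.3 to 28.4 and XCL1 at 9.42 to 23.3 over the 6 ewes. Sub-cluster 7 (147 cells with KLRD1 and SH2D1A) also had both, with XCL1 at 5.47, 29.3, 18.7, 29.7 and 32.1 in 5 ewes and 83.7% of its cells holding an XCL1 UMI. Sub-cluster 9 (133 cells with GNLY, the cytotoxic granule gene, and HOPX) had CCL5 at 28.9, 49.5, 43.9 and 45.5 in 4 ewes, while XCL1 lay at 1.76 to 2.54. In that sub-cluster 95.5% of cells held a CCL5 UMI and 10.5% an XCL1 UMI. Sub-cluster 0, the 929 cells with CD3E and IL7R, had CCL5 at 1.203 to 8.66 over the 6 ewes and XCL1 at 0.759 to 3.01. That XCL1 range was wider than the range of sub-cluster 9 and held it. Sub-cluster 5, 171 unnamed cells with IL17F and BLK, had CCL5 at 1.73 and XCL1 at 0.492 with all ewes pooled. By ewe, its CCL5 ran from 0 in HLS2 to 4.27 in LLS1, and its XCL1 from 0 in HLS2 to 1.10 in HLS3.

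**Figure D4:**
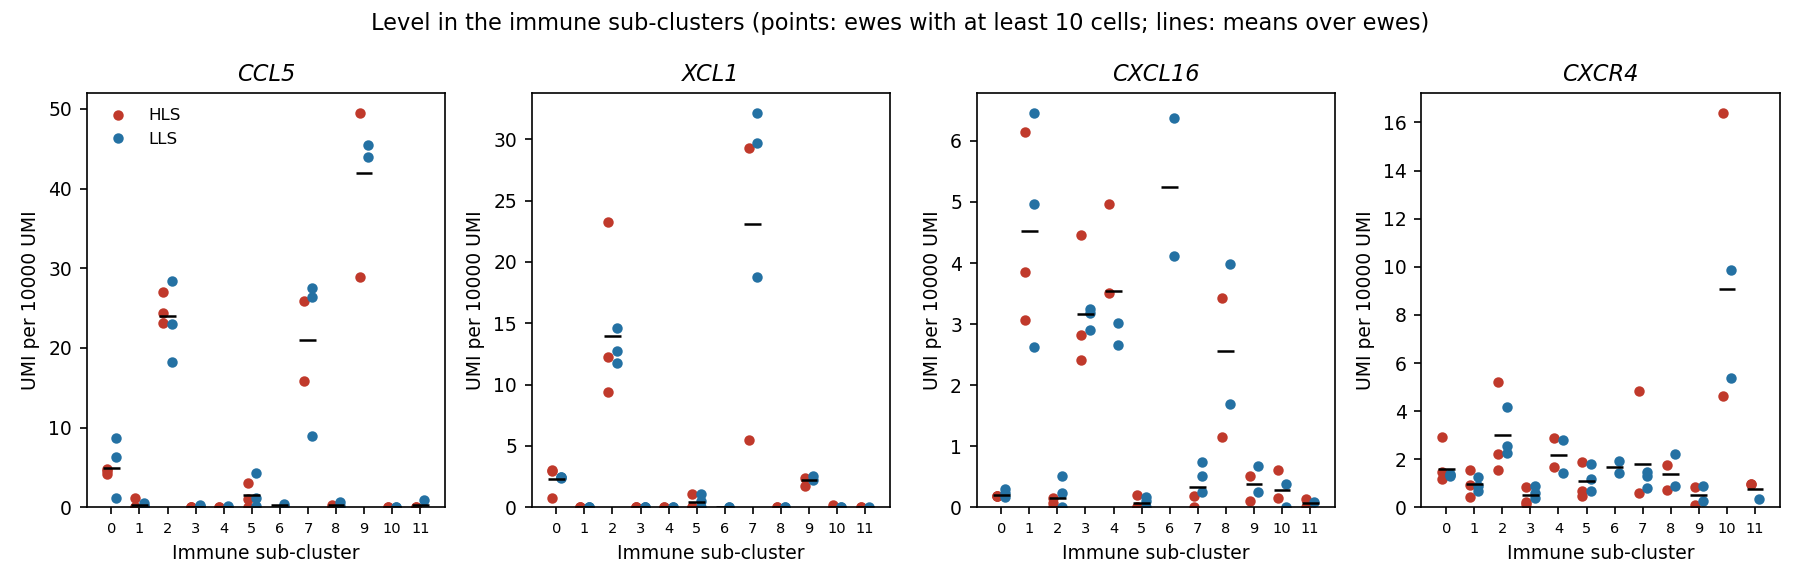
Level of CCL5, XCL1, CXCL16 and CXCR4 (vertical axes, UMI per 10000 UMI) in immune sub-clusters 0 to 11 (horizontal axes); points are ewes with at least 10 cells of the sub-cluster and lines are means. Sub-clusters 2 and 7 were high in both CCL5 and XCL1, sub-cluster 9 in CCL5 with XCL1 at 1.76 to 2.54, and sub-cluster 10, neutrophil-like, in CXCR4.

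The receptors XCR1 and CXCR3 lay in different cell types. XCR1 was read in macrophage-like cells (0.118 ± 0.0517), and 93 of its 111 UMI lay in the dendritic-like sub-cluster 3, where 41 of 230 cells held one (17.8%). The CXCL9 receptor CXCR3 had 144 UMI in all and was highest in T/NK-like cells (0.284 ± 0.0649). Macrophage-like and perivascular-like cells had 1 UMI each, and some UMI lay in further types. CCR3 had 32 UMI in all. DPP4, the peptidase that trims several chemokines, was highest in T/NK-like cells (0.542 ± 0.231).

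An endothelial cluster also held CCL5. In the lymphatic endothelial-like cluster 14 (806 cells led by MMRN1, CCL21 and PROX1), CCL5 was at 0.243 in HLS1, 1.16 in HLS2, 0.0658 in HLS3, 0.795 in LLS1, 0.00966 in LLS2 and 1.13 in LLS3. HLS2, LLS1 and LLS3 were high and the others low, a division that did not follow litter size. The T cell gene CD3E was at 0 to 0.0329 in the same cells, the leukocyte gene PTPRC at 0 to 0.0323, and XCL1 had 1 UMI. All endothelial-like cells together held 10.2% ± 9.08 of the CCL5 UMI.

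CCL25, a chemokine best known from thymus and small intestine, was highest in theca-like cells, the steroid-producing cells around follicles. Of the HLS ewes, HLS1 had 1.49, HLS2 2.54 and HLS3 2.16, and of the LLS ewes, LLS1 had 0.672, LLS2 1.44 and LLS3 3.07 (1.90 ± 0.863, n = 6). Both groups overlapped, with LLS3 highest and LLS1 lowest. Theca-like cells stood 2.98 times above cycling-like cells (0.636 ± 0.327), in 6 of 6 ewes. Granulosa-like cells (0.423 ± 0.139) and stromal-like cells (0.399 ± 0.199) followed, and their order held in 4 of 6 ewes. The thinned share of theca-like cells with a CCL25 UMI was 16.3% (73.0% unthinned, median 16204 UMI), against 0.788% of T/NK-like cells (1.66% unthinned).

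CCL25 was not confined to theca-like cells. They held 39.6% ± 17.3 of its UMI, stromal-like cells 20.9%, cycling-like cells 12.4%, granulosa-like cells 11.97% and endothelial-like cells 11.7%. The endothelial-like part came from many cells at a low level. Their level (0.0550) was the lowest of the 12 ranked types, below the T/NK-like cells taken as background (0.0686). A further 3 clusters with steroidogenic or stromal genes were high. The granulosa-like cluster 20, led by GSTA1 and NMB and shallow at a median of 2170 UMI, was at 6.397, 1.25, 1.10, 0.204, 2.64 and 1.57 (HLS1 to LLS3). The stromal-like cluster 21, with GSTA1 and the LH receptor gene LHCGR, was at 1.52 ± 0.883, and the cycling cluster 16, with COL1A1, ALPL and LUM, at 1.11 ± 0.590. LLS1 was the lowest ewe in theca-like, granulosa-like, stromal-like and cycling-like cells alike. The receptor CCR9 had 157 UMI in all, 54 of them in T/NK-like cells (0.112 ± 0.0860). The scavenger ACKR4 had its highest mean in epithelial-like cells (0.105 ± 0.196, n = 4), with an SD above that mean. Of the 330 epithelial-like cells of those ewes, 222 came from LLS2.

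CXCR4, the CXCL12 receptor that retains leukocytes in tissues, was highest in neutrophil-like cells. The level was 16.4 in HLS1, 4.29 in HLS2, 4.62 in HLS3, 7.46 in LLS1 and 5.39 in LLS2 (7.63 ± 5.05, n = 5), on 102 UMI in 111 cells, and HLS1 was far above the rest with 11 cells. These cells were shallow, at a median of 1208 UMI. T/NK-like cells were at 1.42, 0.988, 3.02, 1.42, 1.54 and 1.44 (1.64 ± 0.703) and macrophage-like cells at 1.38, 0.974, 1.42, 1.10, 1.57 and 1.18 (1.27 ± 0.223) in HLS1 to LLS3. T/NK-like cells stood above macrophage-like cells in 5 of 6 ewes, and the ratio of the 2 means was 1.29. The thinned shares were 43.0% of neutrophil-like, 13.0% of T/NK-like and 9.90% of macrophage-like cells, against 0.221% of granulosa-like cells. Unthinned shares were 49.0%, 28.8% and 46.0% in that order, against 1.28%, so that macrophage-like cells lay above T/NK-like cells. Median depths were 1208, 2367 and 6462 UMI a cell.

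Vascular cells carried CXCR4 at low levels. Perivascular-like cells were at 0.221 and endothelial-like cells at 0.0900 ± 0.0538, yet the endothelial-like cells, being many, held 30.6% of all CXCR4 UMI. The endothelial-like cluster 10, led by APLN, was at 0.173. ACKR3, the other CXCL12 receptor, was at 0.413 ± 0.050 in endothelial-like cells, 0.401 ± 0.169 in perivascular-like cells and 0.370 ± 0.132 in T/NK-like cells, and was highest within the endothelium in cluster 14 (1.35 ± 0.319) and cluster 10 (1.03). Among the lymphocytes, CXCR4 was at 1.54 to 5.20 in sub-cluster 2 over 6 ewes and at 0.110 to 0.906 in sub-cluster 9 over 4 ewes. In sub-cluster 7 it was at 4.82 in HLS3 and at 0.608 to 1.49 in the other 4 ewes.

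Among 11557 genes with a mean of at least 5 CPM, those on the chemokine list were passed over. The genes most like each chemokine were found by Pearson's r of log2(CPM + 1) over 69 sums of 13 types and ewes. These values describe likeness only, since sums of 1 ewe share a library. CXCL9 was most like ABCG2 (r = 0.669), BTNL9 (0.653) and CA4 (0.641), and CXCL12 most like AOC3 (0.786), PHLDB2 (0.716) and DTX1 (0.694). CXCL16 was most like STING1 (0.782), SCIN (0.752) and XAF1 (0.747), and CCL25 most like KCNIP1 (0.808), LOC101103454 (0.791) and SYT6 (0.764). XCL1 was most like CD3D (0.958), CD96 (0.954) and LOC101112639 (0.945), CCL5 most like LOC101120322 (0.896), LOC114109030 (0.886) and LOC101112639 (0.881), and CXCR4 most like LCP2 (0.889), CORO1A (0.889) and ITGB7 (0.886). For CXCL14, r did not pass 0.650 (FIGN).

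Of 57 other chemokine, receptor and partner genes on a fixed list, 39 were in the tables. The 6 named by their highest level in any type were CXCL8 (128 ± 83.0) and its receptor CXCR2 (12.6 ± 6.55) in neutrophil-like cells, CCL21 in endothelial-like cells (3.05 ± 2.47), CXCL1 in macrophage-like cells (1.54 ± 1.32), CCR7 in B cell-like cells (1.199 ± 0.721) and CCR8 in T/NK-like cells (1.18 ± 0.720).

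HLS and LLS were then compared to ask whether any of the 8 genes differed with litter size, with edgeR's quasi-likelihood test on UMI sums of 3 against 3 ewes, in 7 cell types and in all retained cells. Of 42 tests of a gene in a cell type or in all cells, none passed an adjusted p under 0.05, in edgeR or in DESeq2, and 5 had an unadjusted p under 0.05. The log2 fold changes ran from -3.15 to 1.46, with 24 higher and 18 lower in HLS. Over all genes edgeR called 0% of 15122 genes in endothelial-like cells, 0% of 13830 in stromal-like, 0% of 12004 in granulosa-like, 0% of 10878 in perivascular-like, 0% of 5707 in T/NK-like and 0% of 11839 in theca-like cells, 0% of 17933 in all retained cells, and 0.0225% of 8887 in macrophage-like cells. An unadjusted p under 0.05 was reached by 1.43% of genes in endothelial-like, 4.57% in stromal-like, 4.61% in granulosa-like, 3.28% in perivascular-like, 2.61% in T/NK-like, 6.31% in macrophage-like and 3.39% in theca-like cells and by 3.04% in all cells, against 0 of 6, 1 of 6, 1 of 4, 0 of 5, 0 of 4, 1 of 4, 1 of 5 and 1 of 8 chemokine genes.

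**Figure D5:**
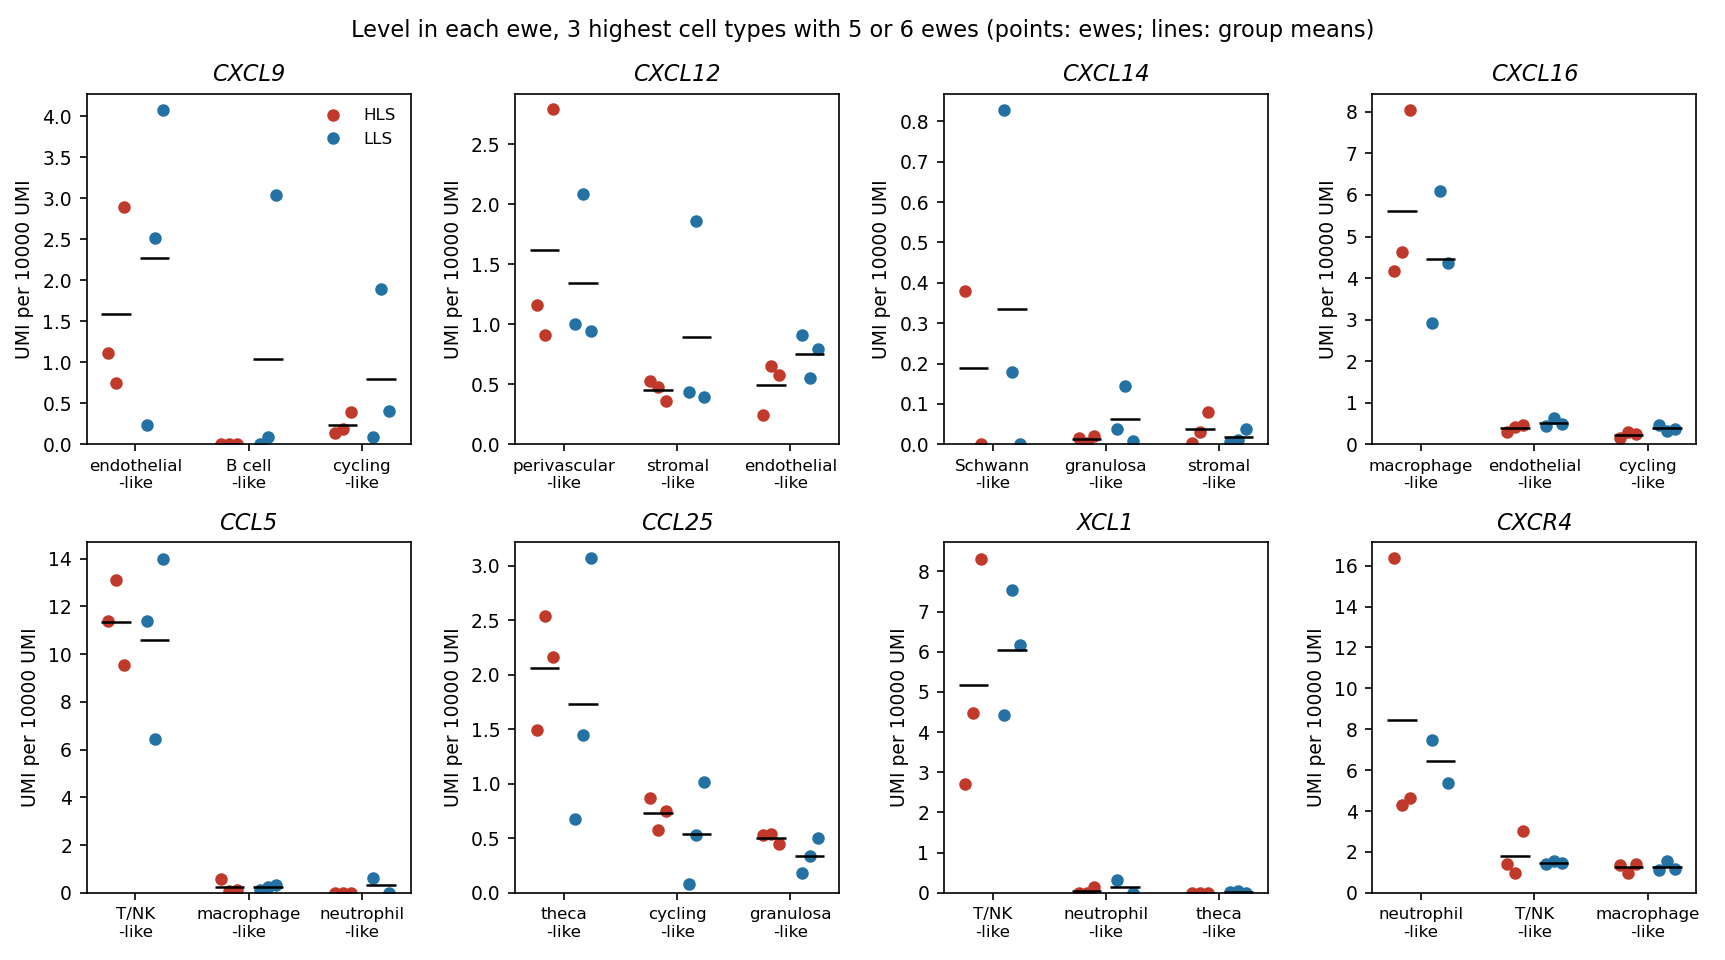
Level of each gene (vertical axes, UMI per 10000 UMI) in the 3 highest cell types with 5 or 6 ewes; points are ewes (red HLS, blue LLS) and lines are group means. The points of both groups overlapped in the highest type of each gene.

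CXCL12 over all retained cells was the gene whose groups stood apart there. Its level was 0.308, 0.476 and 0.350 in HLS1 to HLS3 and 0.708, 0.768 and 0.543 in LLS1 to LLS3, so every LLS ewe lay above every HLS ewe. The log2 fold change was -0.72 ± 0.20 (SE), with an adjusted p of 0.998 in edgeR and an unadjusted p under 0.05. Groups that did not overlap were found for 8.05% of all genes in that fit. In sums over all cells, fewer cells of a type and less RNA per cell cannot be told apart. The 4 CXCL12-rich clusters (7, 11, 15 and 18) made up 6.78%, 12.3% and 11.1% of the cells of HLS1 to HLS3 and 12.2%, 15.0% and 9.95% of those of LLS1 to LLS3, and their part in the difference was not tested. Within types the log2 fold change was -0.59 ± 0.32 in endothelial-like cells (edgeR adjusted p = 0.9996), -0.83 ± 0.55 in stromal-like cells (adjusted p = 0.812) and 0.35 ± 0.42 in perivascular-like cells (adjusted p = 0.990). The stromal-like value turned to 0.25 without LLS2 and the perivascular-like value to -0.19 without HLS3.

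CXCL16 was lower in HLS in several types, without passing the test in any. Granulosa-like cells, at a mean level of 0.214, were the type taken as background for this gene. T/NK-like cells (0.210) and stromal-like cells (0.140) lay no higher. Whether the CXCL16 UMI of these types came from their own cells was not tested. In granulosa-like cells HLS1 to HLS3 had 0.105, 0.0672 and 0.101, and LLS1 to LLS3 had 0.739, 0.156 and 0.116. All 3 LLS values were higher before scaling, where groups did not overlap for 1733 of the 12004 genes tested. After TMM scaling the groups overlapped for CXCL16. LLS1 stood far above the other 2 LLS ewes (edgeR log2 fold change -1.61 ± 0.65, adjusted p = 0.948). In stromal-like cells HLS1 to HLS3 had 0.0756, 0.123 and 0.131 and LLS1 to LLS3 had 0.213, 0.173 and 0.127, so that HLS3 lay above LLS3. The log2 fold change was -0.56 ± 0.24 (edgeR adjusted p = 0.812). In endothelial-like cells it was -0.35 ± 0.18 (edgeR adjusted p = 0.9996). The groups were apart after TMM scaling, beside 5.33% of all genes with groups apart. Before scaling they overlapped (0.294, 0.408 and 0.454 against 0.443, 0.623 and 0.481), with HLS3 above LLS1. In T/NK-like cells the log2 fold change was -0.57 ± 0.36 (edgeR adjusted p = 0.998). There too the groups were apart after TMM scaling, beside 8.03% of all genes. Before scaling HLS3 again lay above LLS1 (0.131, 0.112 and 0.216 against 0.215, 0.274 and 0.312). In macrophage-like cells, its main source by level, the log2 fold change was 0.36 ± 0.35 (edgeR adjusted p = 0.863).

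In endothelial-like cells the difference in CXCL9 between the groups was smaller than its error (edgeR log2 fold change -0.46 ± 0.87, adjusted p = 0.9996), and the value turned to 0.31 without LLS3. In macrophage-like cells HLS1 to HLS3 had 0.145, 1.35 and 0.304 against 0.304, 0.250 and 0.0710 in LLS1 to LLS3, with HLS2 alone above 1 (log2 fold change 1.46 ± 0.64, edgeR adjusted p = 0.778). In theca-like cells it was 0.0829, 0.00173 and 0.0341 against 0, 1.19 and 0.0375 (log2 fold change -3.15 ± 1.36, edgeR adjusted p = 0.980). LLS2 alone was high there, with 162 UMI in 97 cells, and without it the log2 fold change was 0.74.

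The T/NK genes and CCL25 did not pass the test either. In T/NK-like cells the log2 fold change was 0.26 ± 0.34 for CCL5, -0.12 ± 0.32 for XCL1 and 0.46 ± 0.33 for CXCR4, each with an edgeR adjusted p of 0.998. All 3 changed sign when 1 ewe was left out: CCL5 to -0.02 without LLS2, CXCR4 to -0.02 without HLS3, and XCL1 to 0.07 without HLS1, 0.01 without HLS2 and 0.03 without LLS2. CXCR4 in endothelial-like cells was at 0.175, 0.0516 and 0.136 in HLS1 to HLS3 and at 0.0383, 0.0637 and 0.0748 in LLS1 to LLS3, where HLS2 lay within the LLS range (edgeR log2 fold change 1.18 ± 0.51, adjusted p = 0.9996). CCL25 was 0.40 ± 0.41 in theca-like cells (edgeR adjusted p = 0.980) and 0.75 ± 0.34 in granulosa-like cells (adjusted p = 0.948), where the levels were 0.532, 0.537 and 0.445 against 0.185, 0.334 and 0.504.

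The other chemokine genes gave no call in edgeR with the filter on low counts. Without that filter, 3 of 32 were called in macrophage-like cells, beside 165 of 18448 genes in all. In T/NK-like cells 2 of 32 were called, beside 36 of 17757. Over all retained cells 32 were tested, 11 higher and 21 lower in HLS, with a median log2 fold change of -0.11 beside 0.00 over all genes. Of these, 2 had an unadjusted p under 0.05 in edgeR, beside 3.04% of all genes. In macrophage-like cells 5 of 14 had an unadjusted p under 0.05, beside 6.31% of all genes. In T/NK-like cells it was 3 of 12, beside 2.61% of all genes. Among the 3 were the partner genes CXCR3 (log2 fold change 0.73 ± 0.30) and DPP4 (-0.68 ± 0.31), both with an adjusted p of 0.998 in edgeR. In stromal-like cells it was 2 of 13, beside 4.57% of all genes, and in theca-like cells 1 of 8, beside 3.39%. It was 0 in endothelial-like (19 tested, all genes 1.43%), granulosa-like (8, 4.61%) and perivascular-like cells (9, 3.28%).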

How the data were processed

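Single-cell libraries of 6 ovaries were deposited as 10x matrices of UMI counts per gene and barcode. Per the submitters' processing notes, the authors used Cell Ranger (5.0.0 per the file headers) with STAR. The genome build is not given in the sources used here. Barcodes with at least 200 genes, 1000 UMI and a log10 genes-to-UMI ratio of 0.7, at most 10% mitochondrial and 5% haemoglobin UMI were kept (38464 of 52290), and 2007 were removed by a nearest-neighbour score against simulated doublets. The 36457 cells were clustered (2000 variable genes without 47 chemokine genes, 30 components, Leiden, resolution 0.8; leidenalg 0.10.2, scikit-learn 1.9.0) and named from marker lists. The minimum score of 0.3, the scoring rule, the separate theca-like and cycling-like types and their tests were set after the clusters were seen, as was the rule that a cluster with more leading genes of another list stays unnamed. UMI were summed per ewe and type (at least 10 cells) and tested with edgeR's quasi-likelihood test (edgeR 4.0.16, TMM, filterByExpr, Benjamini-Hochberg over all genes of a fit, 0.05), which was tested on simulated data, with DESeq2 1.42.0 as alternative. The ewes are separate animals. The members and all lists were chosen with earlier results of these data known, and the named genes are the 8 members, their fixed partners, the 6 highest other chemokine genes and the 3 genes most like each member. One partner gene is not reported here. Depth was 43329214 to 75549906 UMI a library.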

Additional observations from a re-analysis of the deposited data

How the results depend on the processing

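The level of each of the 8 genes in its highest cell type stayed within 1 SD in all 80 alternatives (other filters, no doublet removal, finer clusters, cell-weighted means, an ewe left out). Leaving out 1 ewe cannot move a mean by 1 SD, so the level could not fail in those runs. Each gene also kept its highest cell type where this was read. For CXCL9 without the clusters of HLS2 and LLS1, or without those ewes, only the level was read. In the tests, 104 of 106 alternative counts of chemokine genes called stayed at 0. With no filter on low counts the count became 1 of 8 in macrophage-like and 1 of 8 in theca-like cells. In macrophage-like cells this was CXCL9 (log2 fold change 1.44, adjusted p = 0.00141 in edgeR), with 165 of 18448 genes called in place of 2. In theca-like cells it was also CXCL9 (-3.13, adjusted p = 0.00336 in edgeR), with 46 of 20062 called in place of 0. The cause was not tested. Without the filter, 36 of 17757 genes were also called in T/NK-like and 14 of 19591 in perivascular-like cells, where the main test called 0. Of the other chemokine genes, 3 of 32 were called in macrophage-like and 2 of 32 in T/NK-like cells. Leaving out an ewe gave 0 to 6 calls over all genes in macrophage-like cells and 0 to 3 in each other type. DESeq2 called 52 genes over all cells, 32 in macrophage-like cells and 0 to 4 in each other type, none of them among the 8 genes. Leaving out an ewe gave log2 fold changes of -1.10 to 0.31 for CXCL9 in endothelial-like cells, -4.33 to 0.74 for CXCL9 in theca-like cells, -1.18 to 0.25 for CXCL12 in stromal-like and -0.19 to 0.80 in perivascular-like cells, and in T/NK-like cells -0.023 to 0.50 for CCL5, -0.021 to 0.78 for CXCR4 and -0.57 to 0.073 for XCL1, which was 0.01 without HLS2 and 0.03 without LLS2. Of the 42 tests, 17 kept their direction in every alternative. Unthinned shares of cells were higher than thinned ones, at 28.6% for CXCL9, 31.3% for CXCL12, 71.5% for CXCL16, 50.3% for CCL5, 73.0% for CCL25 and 28.1% for XCL1. For CXCR4 in neutrophil-like cells (49.0%) and CXCL14 in Schwann-like cells (7.44%) they lay within 1 SD of the thinned share.

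Ewes with the same number did not deviate together for all 3 numbers (correlations -0.29, -0.34 and 0.28 in endothelial-like cells, -0.05, -0.31 and 0.05 over all cells). For number 3 the correlation was positive in each type and over all cells, at 0.05 to 0.28. For number 2 it was negative in each, so the numbers were not taken as pairs. With the replicate block, 0 of the chemokine genes were called in each type. The runs without clusters 2 and 18, without HLS2 and LLS1, and on theca-like cells were chosen after the data were seen. So were those without granulosa-like cluster 13 and with theca-like cells joined to stromal-like cells. Cluster 13 held 882 of the 3000 granulosa-like cells, scored 0.3145 and had 0 granulosa markers among its 10 leading genes. Without it, 0 of 5 chemokine genes were called and 2 had an unadjusted p under 0.05 in edgeR, beside 539 of 10569 genes. With 3 ewes a group, low counts of CXCL14 and of CXCR4 in neutrophil-like cells limit what could be seen.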
